A study of Mus musculus with 12 samples.

Results

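The circadian clock genes Arntl, Npas2, Per1, Per2, Per3, Cry1, Nr1d1, Nr1d2, Dbp and Ciart were followed across 12 liver RNA-seq libraries of wild-type (WT) C57BL/6J mice. They were taken by gene symbol, and all 10 were found among the 54532 gene IDs measured. The libraries formed 4 groups of 3. They were mice fed CD, a diet whose name is given only in this short form, mice on a high-fat diet (HFD), and mice on each diet given 2% dextran sulfate sodium (CD_DSS and HFD_DSS), a polysaccharide used to cause colitis by damaging the gut lining. All groups shared the strain, the genotype and the tissue, and no group carried a transgene or deleted gene by the labels. Age, sex, the hour of tissue collection, feeding state at collection, and the route and duration of DSS could not be taken from the labels (not given in the sources used here). Because separate animals per library are not stated, the p-values measure only how much these samples vary, and that variation may be technical.

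The clock is a feedback loop of transcription. CLOCK or NPAS2 pairs with BMAL1, the product of Arntl, and the pair activates genes with E-box elements, among them the Per, Cry and Nr1d genes, Dbp and Ciart. PER and CRY proteins inhibit the pair, and REV-ERBα and REV-ERBβ, encoded by Nr1d1 and Nr1d2, repress Arntl, Npas2 and Cry1 through ROR elements. In mouse liver the mRNAs of Nr1d1 and Dbp peak by day and that of Arntl late at night, and feeding times shift the liver clock. Whether the groups were collected at the same hour is not stated, so group and hour cannot be told apart here.

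RefSeq promoter windows of 300 bases (build GRCm38.p6, 250 before and 50 after the start site) were matched for 9 of the 10 genes, all but Per2. Motifs were searched on both strands and counted separately: the E-box CACGTG, its variant CACGTT, the D-box TTATGNAA and the ROR element core TAGGTCA. The windows shown are those of Cry1, the gene that passed the tests, of Per1 and Nr1d1, and of Arntl. Per1 and Arntl had 2 windows each, and the one with a match is shown, the first of Per1 and the second of Arntl. Their other windows held none of these motifs. Capitals mark the matches, which on the printed strand read AACGTG for the variant. They lie at chr10:85185005-85185304 (Cry1, minus strand), chr11:69098699-69098998 (Per1, plus strand), chr11:98775328-98775627 (Nr1d1, minus strand) and chr7:113207261-113207560 (Arntl, plus strand).
Cry1: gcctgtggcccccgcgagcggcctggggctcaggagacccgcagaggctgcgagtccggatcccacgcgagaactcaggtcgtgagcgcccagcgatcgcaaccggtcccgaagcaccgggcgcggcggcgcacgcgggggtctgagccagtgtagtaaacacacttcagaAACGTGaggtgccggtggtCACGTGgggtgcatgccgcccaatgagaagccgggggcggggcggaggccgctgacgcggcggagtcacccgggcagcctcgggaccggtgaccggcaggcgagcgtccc
Per1: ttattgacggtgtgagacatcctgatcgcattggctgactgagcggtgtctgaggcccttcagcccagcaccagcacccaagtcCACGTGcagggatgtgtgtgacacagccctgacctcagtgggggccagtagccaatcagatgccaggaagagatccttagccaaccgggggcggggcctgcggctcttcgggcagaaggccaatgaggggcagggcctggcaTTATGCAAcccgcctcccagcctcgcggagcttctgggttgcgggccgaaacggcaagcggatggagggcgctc
Nr1d1: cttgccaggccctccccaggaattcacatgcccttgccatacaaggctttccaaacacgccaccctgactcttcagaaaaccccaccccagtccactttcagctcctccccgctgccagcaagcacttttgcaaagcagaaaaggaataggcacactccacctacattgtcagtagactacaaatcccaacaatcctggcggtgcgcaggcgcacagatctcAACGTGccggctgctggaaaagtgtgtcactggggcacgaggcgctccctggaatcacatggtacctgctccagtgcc
Arntl: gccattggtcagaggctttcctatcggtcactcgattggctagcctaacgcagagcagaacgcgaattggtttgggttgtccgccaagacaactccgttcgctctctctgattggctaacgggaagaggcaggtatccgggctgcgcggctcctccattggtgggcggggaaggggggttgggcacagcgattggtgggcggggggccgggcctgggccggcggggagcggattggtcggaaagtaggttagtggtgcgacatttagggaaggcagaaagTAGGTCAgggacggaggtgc
The Cry1 window held an E-box at bases -60 to -55 from the start site and a variant at -79 to -74. The Per1 window held an E-box at -166 to -161 and a D-box at -24 to -17, the Nr1d1 window a variant at -28 to -23, and the Arntl window a ROR element core at 31 to 37 after the start. In all, CACGTG was in the windows of 3 of the 9 genes (Per1, Cry1 and Ciart), against 8.09% of all 27025 genes with a window. CACGTT was in those of 2 (Cry1 and Nr1d1, 5.44% of all genes), TTATGNAA in those of 2 (Per1 and Per3, 3.99% of all genes) and TAGGTCA in that of 1 (Arntl, 2.97% of all genes). A match is a description of these letters and not a site shown to be bound.

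Expression was deposited as FPKM, fragments normalised to transcript length and library size, and depth was 23.4 to 29.4 M fragments a library. Hepatocyte markers were abundant in every library, with Alb at 16129 FPKM or more. In 3 libraries Saa1, an acute phase gene that inflammation induces in liver, stood apart from the group. HFD 1 had 579 FPKM while its group mates had 19.9 and 22.4. CD_DSS 1 had 9.14 while CD_DSS 2 had 595 and CD_DSS 3 had 483, and HFD_DSS 2 had 191 while the others of its group had 1104 and 2670.4. The limma calls of clock genes and the counts of each list are therefore given with and without these 3 libraries, which were chosen from expression in these data. Tests used limma on log2(FPKM + 1), so fold changes are of FPKM + 1 and those of genes near 1 FPKM are understated. P-values were adjusted over the 10806 genes that reached 1 FPKM in 3 or more libraries, and a call is an adjusted p under 0.05.

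Among the clock genes, 7 passed this filter: Arntl, Npas2, Cry1, Per1, Per2, Nr1d1 and Nr1d2. Per3, Dbp and Ciart stayed under 1 FPKM in all 12 libraries. Cry1 had the highest mean level (7.80 FPKM over the 12 libraries), followed by Nr1d1 (4.77), Arntl (4.39), Nr1d2 (4.22), Per1 (3.25), Npas2 (2.02) and Per2 (1.53).

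**Figure D1:**
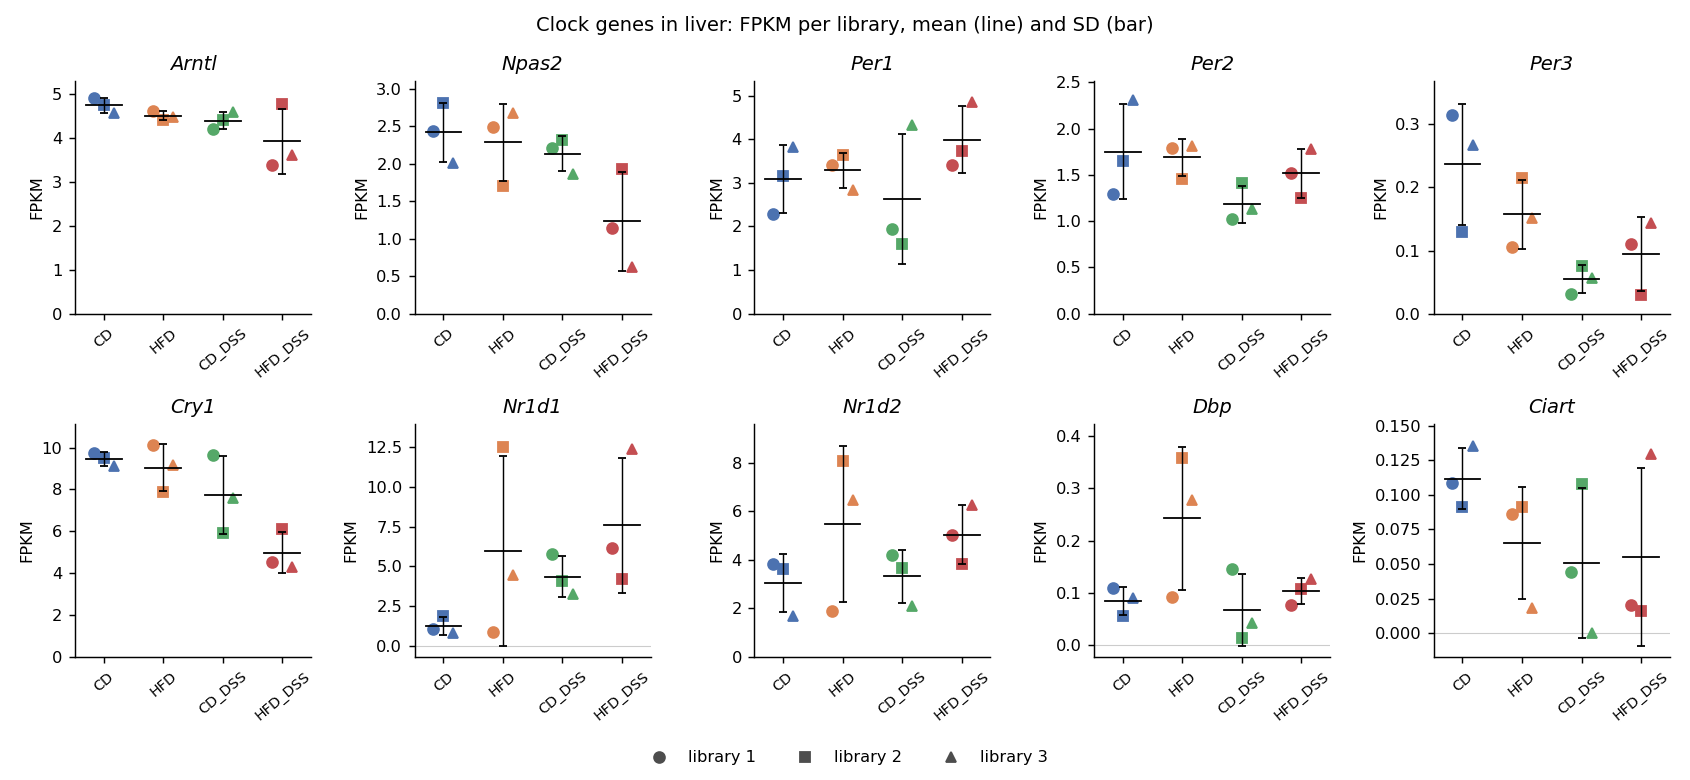
FPKM of each clock gene (vertical axes, linear) in the 12 libraries by group; marker shapes give the library number, lines the group mean and bars the SD of 3 libraries. Arntl varied from 3.38 to 4.90 FPKM over all libraries, while Nr1d1 ranged from 0.783 to 12.5 and differed widely within HFD and HFD_DSS.

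Cry1, lower with DSS, was the one clock gene called, and no clock gene was called for diet. Counted by comparison, 0 of the 7 tested clock genes were called in HFD against CD, where 0.00925% of all genes tested were called (0 clock genes at an unadjusted p under 0.05 in limma, 0 called with voom). In CD_DSS against CD 0 of 7 were called against 4.80% of all genes (1 at an unadjusted p under 0.05, 0 with voom). In HFD_DSS against HFD 1 of 7 was called against 4.83% (Cry1 with limma and with voom). In HFD_DSS against CD_DSS 0 of 7 were called against 0.102% (3 unadjusted, 0 with voom), and in the difference between the DSS effects 0 of 7 against 0.00925% (0 unadjusted, 0 with voom). The averaged DSS effect called 1 of 7 against 20.0% of all genes, a share near the background (lower calls 1 of 7 against 11.2%, higher calls 0 against 8.72%). In that effect 3 of the 7 had an unadjusted p under 0.05, as did 3779 of all 10806 genes. Voom called 2 of the 9 clock genes it tested, Cry1 and Per3, against 2324 of 14758 genes. The averaged diet effect called 0 of 7 against 0.342% (2 unadjusted, 0 with voom). Over all 10806 genes, an unadjusted p under 0.05 was reached by 726 in HFD against CD and 2555 in CD_DSS against CD. It was reached by 1171 in HFD_DSS against CD_DSS, 533 in the difference between DSS effects and 1364 in the averaged diet effect. Without the 3 libraries that stood apart, Arntl, Npas2 and Cry1 were called lower in the averaged DSS effect (3 of 7, against 3359 of 10611 genes called) and in HFD_DSS against HFD (3 of 7, against 2028 genes). Groups did not overlap for 1 of the 7 in CD_DSS against CD (Nr1d1, 27.0% of all genes) and 1 in HFD_DSS against HFD (Cry1, 27.1%). None (0) separated in HFD against CD (13.1%) or in HFD_DSS against CD_DSS (16.5%). The median log2 fold change of the 7 for the averaged DSS effect was -0.13, against -0.01 for all genes. Of all calls in that effect 43.7% were higher, and 59.4% after rescaling to TPM; Cry1 was lower with both and with median-of-ratios scaling.

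Arntl (ENSMUSG00000055116, chr7:113207465-113314126, plus strand), the obligate partner in the activating pair, was the steadiest of the 7. It was 4.90, 4.75 and 4.56 FPKM in CD 1 to 3 and 4.62, 4.41 and 4.49 in HFD 1 to 3. In CD_DSS it was 4.19, 4.41 and 4.58, and in HFD_DSS 3.38, 4.76 and 3.62. HFD_DSS 1 and 3 were the lowest of the 12 libraries, while HFD_DSS 2 lay among the CD values, so the groups overlapped. The SD of log2(FPKM + 1) within groups was 0.11, at the 25.1 percentile of all genes tested. No comparison of Arntl was called; against HFD, the difference in HFD_DSS was -0.17 on the log2 scale (SE 0.10, limma adjusted p = 0.299). Without the 3 libraries that stood apart it was -0.28 (adjusted p = 0.0414), and without HFD_DSS 2 alone Arntl was called too.

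Npas2 (ENSMUSG00000026077, chr1:39193731-39363236, plus strand) encodes a paralogue of CLOCK. Its levels were 2.43, 2.80 and 2.01 FPKM in CD 1 to 3 and 2.48, 1.70 and 2.68 in HFD 1 to 3. With DSS they were 2.21, 2.31 and 1.87 on CD and 1.14, 1.93 and 0.629 on HFD. As for Arntl, HFD_DSS 1 and 3 were the lowest libraries, and HFD_DSS 2 lay above HFD 2, so HFD and HFD_DSS overlapped. The log2 fold change of Npas2 in HFD_DSS against HFD was -0.59 (SE 0.19) and did not pass (limma adjusted p = 0.0962). Without the 3 libraries that stood apart the log2 fold change was -0.76 (adjusted p = 0.0273). On the CD diet the DSS difference was -0.12 (SE 0.19, adjusted p = 0.756).

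Cry1 (ENSMUSG00000020038, chr10:85131700-85185064, minus strand) encodes a cryptochrome that inhibits the activating pair, and had the highest mean level of the 10. It was 9.74, 9.52 and 9.11 FPKM in CD 1 to 3 and 10.1, 7.86 and 9.14 in HFD 1 to 3. With DSS it was 9.63, 5.92 and 7.59 in CD_DSS 1 to 3, with 4.53, 6.12 and 4.31 in HFD_DSS 1 to 3. Every HFD_DSS library was below every HFD library, whereas on the CD diet CD_DSS 1 lay within the CD range and CD_DSS 2 and 3 lay below it. By mean the order was CD (9.46 ± 0.321 FPKM, SD, n = 3), HFD (9.04 ± 1.14), CD_DSS (7.71 ± 1.86) and HFD_DSS (4.99 ± 0.986). No call was made between the neighbours CD and HFD (limma adjusted p = 0.981), nor between CD_DSS and HFD_DSS (log2 fold change -0.53, adjusted p = 0.241). The adjustment is over all genes tested. With voom the unadjusted p of HFD_DSS against CD_DSS was 0.00511 and the adjusted p 0.278. Of 22 alternatives 0 called this difference (adjusted p 0.101 to 0.574).

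On the high-fat diet Cry1 was 1.68-fold lower with DSS (log2 fold change -0.75, SE 0.16, limma adjusted p = 0.0272). On the CD diet it was 1.22-fold lower, which did not pass (log2 fold change -0.28, SE 0.16, adjusted p = 0.301). Averaged over both diets the DSS effect on Cry1 was -0.52 (SE 0.11, adjusted p = 0.00932). The DSS effects on the 2 diets were not shown to differ (difference -0.47, 95% interval -0.95 to 0.02, adjusted p = 1.00). Without the 3 libraries that stood apart, Cry1 was called lower on both diets, with log2 fold changes of -0.44 on CD (adjusted p = 0.0245) and -0.81 on HFD (adjusted p = 0.00298). The call on the high-fat diet was lost without HFD 2, HFD 3, HFD_DSS 1 or HFD_DSS 3 (adjusted p up to 0.110), while the averaged effect was called in all 21 alternatives (adjusted p 0.000522 to 0.0329). The averaged effect shares its libraries with both single comparisons and is not independent of them.

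**Figure D2:**
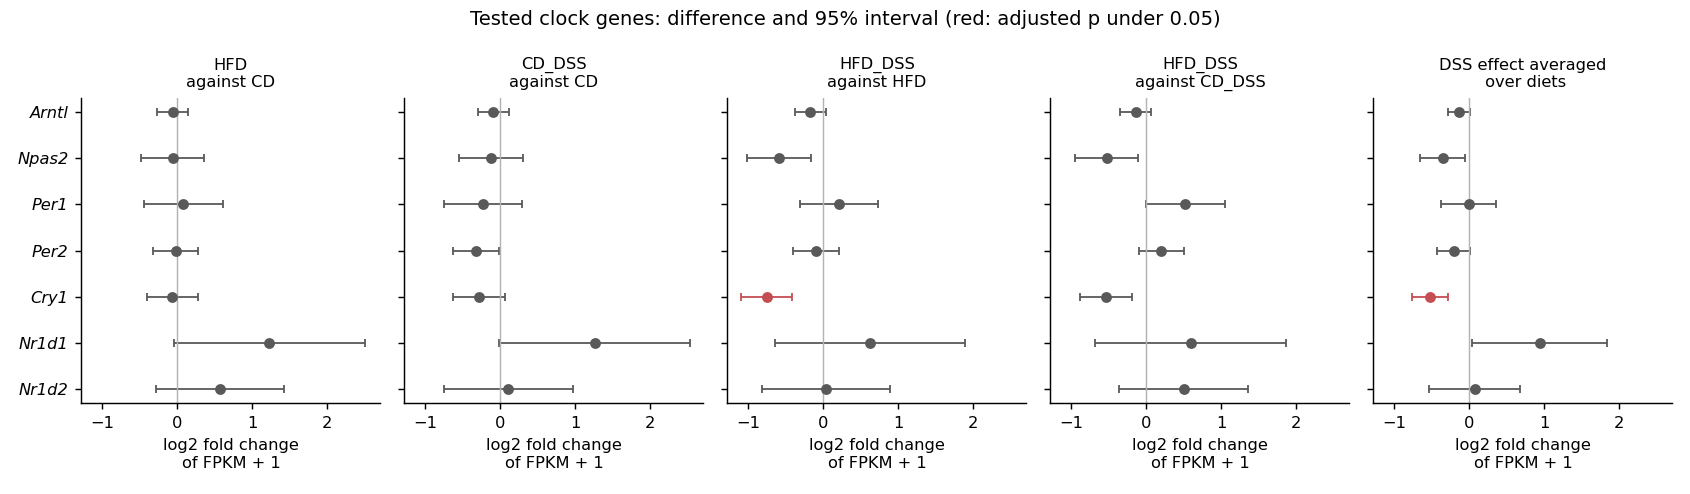
Log2 fold change of FPKM + 1 (horizontal axes) with 95% intervals for the 7 tested clock genes in 5 comparisons; red marks an adjusted p under 0.05. Cry1 is red in HFD_DSS against HFD (-0.75) and in the DSS effect averaged over diets (-0.52), and the intervals of Nr1d1 are the widest.

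Levels of inflammation and cell type markers moved with DSS as well. Of 18 tested acute phase genes 13 were higher in the averaged DSS effect and none lower (0), with a median log2 fold change of 1.41, against 942 higher (8.72%) and 1215 lower (11.2%) of all 10806 genes and a median of -0.01. Of 8 macrophage and Kupffer markers 4 were higher (Adgre1, Marco, Timd4 and Cd5l). The call of Adgre1 was lost in 9 of the 12 fits without 1 library (limma adjusted p up to 0.0859) and that of Cd5l in 8 (up to 0.0695). The summed level of the list was 141 to 190 FPKM in CD, 164 to 242 in HFD, 171 to 336 in CD_DSS and 226 to 337 in HFD_DSS. None of these 8 was at 0 in any library. Of 7 hepatocyte markers 1 was higher (Hnf4a), and their summed level was 39928 to 44364 FPKM in CD, 34134 to 38587 in HFD, 46483 to 49813 in CD_DSS and 25148 to 46750.2 in HFD_DSS. Neutrophil markers summed to 58.8 FPKM at most, with Ly6g at 0 in 8 libraries and Mpo in 5. Of 4 tested 0 passed (4 at an unadjusted p under 0.05 in limma, as were 3779 of all 10806 genes, 0 with voom). Higher calls were also made in limma for 2 of 6 endothelial markers (Lyve1, lost in 6 of 12 fits without 1 library, and Clec4g), 1 of 6 stellate markers (Dcn) and 1 of 3 tested cholangiocyte markers (Sox9, log2 fold change 0.91, adjusted p = 0.00013), with none lower (0). With voom, 1 of 5 cholangiocyte markers and 1 of 7 hepatocyte markers were called lower. Of 7 lymphocyte markers 0 reached the level for testing. In bulk liver, fewer cells of a type and less RNA per cell cannot be told apart. Without the 3 libraries that stood apart, 18 acute phase genes, 8 macrophage and Kupffer markers, 2 hepatocyte markers, 4 neutrophil markers, 2 endothelial, 1 stellate and 2 cholangiocyte markers were higher and 1 hepatocyte and 1 endothelial marker were lower, against 1489 higher and 1870 lower of 10611 genes. These 3 libraries were chosen because their Saa1 stood apart, and Saa1 is on the acute phase list. The counts without them depend on that choice and are no independent evidence. The part of these markers in the Cry1 difference was not tested.

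**Figure D3:**
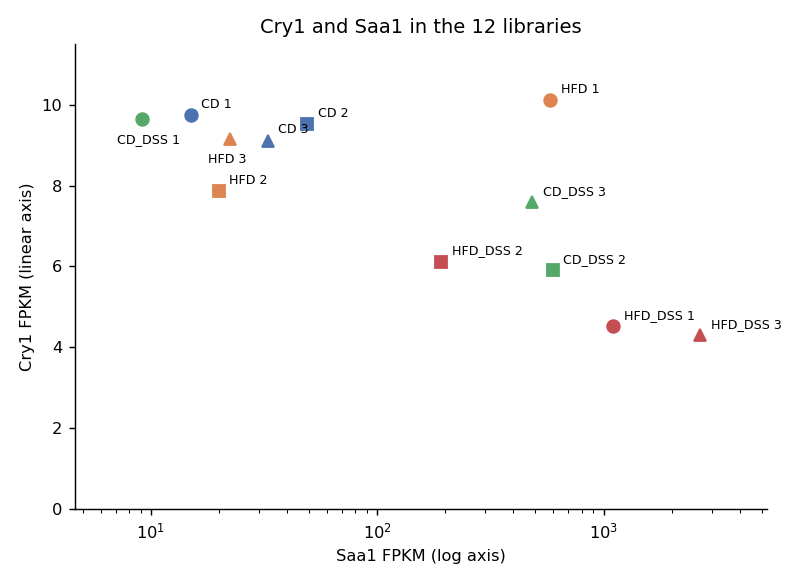
Cry1 FPKM (vertical, linear axis) against Saa1 FPKM (horizontal, log axis) in each of the 12 libraries. The untreated library HFD 1 had 579 FPKM of Saa1 and the highest Cry1 (10.1), CD_DSS 1 had the lowest Saa1 (9.14) and a Cry1 of 9.63, and HFD_DSS 3 had the highest Saa1 (2670.4) and the lowest Cry1 (4.31).

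The 2 libraries that crossed their labels in Saa1 did not behave alike in Cry1. CD_DSS 1, with little Saa1, had Cry1 at the level of CD, whereas HFD 1, with abundant Saa1, had the highest Cry1 of all 12. HFD_DSS 2, with the least Saa1 of its group, had the highest Cry1 of its group but stayed below every HFD library.

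Nr1d1 (ENSMUSG00000020889, chr11:98767932-98775333, minus strand), which encodes the repressor REV-ERBα, had the largest within-group SD of log2(FPKM + 1) of the 7 tested clock genes. It was 1.07, 1.87 and 0.783 FPKM in CD 1 to 3 and 0.849, 12.5 and 4.42 in HFD 1 to 3. It was 5.77, 4.05 and 3.23 in CD_DSS 1 to 3, with 6.14, 4.18 and 12.4 in HFD_DSS 1 to 3. All CD libraries and HFD 1 were under 2 FPKM, and the other 8 libraries were above 3. CD and CD_DSS did not overlap, whereas HFD spanned nearly the whole range and overlapped HFD_DSS. The within-group SD of Nr1d1 was at the 99.4 percentile of the genes tested, with 63 to 934 fragments behind the values.

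Nr1d1 FPKM + 1 in CD_DSS was 2.39 times that in CD (log2 fold change 1.26, SE 0.58), which did not pass (limma adjusted p = 0.215). In a fit of these 2 groups alone, which leaves out HFD and HFD_DSS, it was called (adjusted p = 0.0418). For HFD against CD the log2 fold change was 1.23 (SE 0.58, adjusted p = 0.750), and without the 3 libraries that stood apart, HFD 1 among them, it was 1.96 (adjusted p = 0.150). HFD_DSS against HFD gave 0.62 (adjusted p = 0.551). Averaged over diets the DSS effect was 0.94 (SE 0.41, adjusted p = 0.127), and it was called only without HFD 2 (adjusted p = 0.0279). Of the exon bases of Nr1d1, 8.55% overlap Thra on the opposite strand, a thyroid hormone receptor gene at 2.27 to 3.82 FPKM. Whether counting used strand is not stated, and without it reads of both genes cannot be told apart there.

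Nr1d2 (ENSMUSG00000021775, chr14:18204054-18239127, minus strand), which encodes REV-ERBβ, was 3.83, 3.62 and 1.69 FPKM in CD 1 to 3 and 1.87, 8.08 and 6.49 in HFD 1 to 3. It was 4.21, 3.66 and 2.10 in CD_DSS 1 to 3, with 5.04, 3.84 and 6.27 in HFD_DSS 1 to 3. HFD 2, HFD 3 and HFD_DSS 3 were the highest and CD 3 and HFD 1 the lowest, and the groups of each comparison overlapped. The library highest in Nr1d1, HFD 2, was also highest in Nr1d2, and CD 3 was lowest in both. No comparison of Nr1d2 was called; the log2 fold change of HFD against CD was 0.57 (SE 0.39, limma adjusted p = 0.876), and the averaged DSS effect was 0.07 (SE 0.28, adjusted p = 0.879).

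The ratio of Nr1d1 to Arntl FPKM set the repressor beside its target in each library. It was 0.219, 0.393 and 0.172 in CD 1 to 3 and 0.184, 2.84 and 0.986 in HFD 1 to 3. It was 1.38, 0.919 and 0.705 in CD_DSS 1 to 3, with 1.82, 0.879 and 3.42 in HFD_DSS 1 to 3. Every DSS library was above every CD library, and HFD held both a ratio as low as CD (HFD 1) and one above 2 (HFD 2). Its relation to the hour of collection was not tested.

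**Figure D4:**
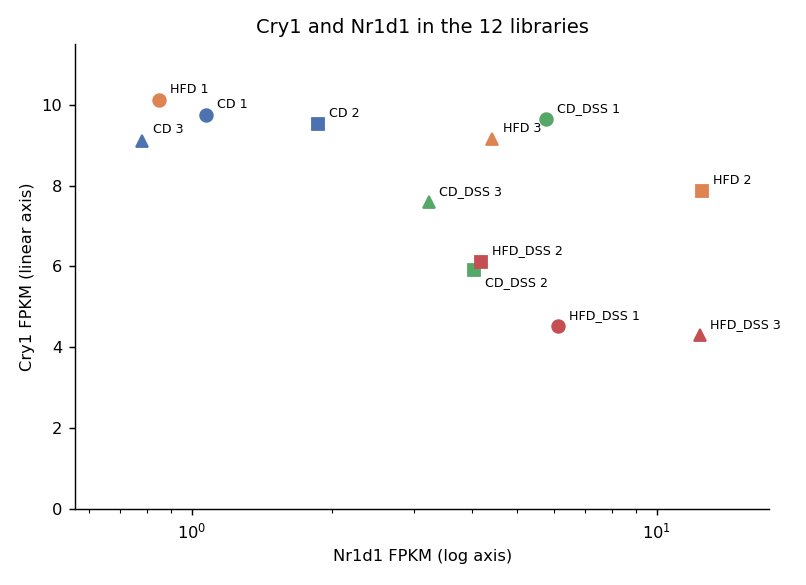
Cry1 FPKM (vertical, linear axis) against Nr1d1 FPKM (horizontal, log axis) in each of the 12 libraries. The 3 CD libraries and HFD 1 lie at Nr1d1 under 2 FPKM with Cry1 above 9, and HFD_DSS 3 lies at 12.4 and 4.31; HFD 2 had as much Nr1d1 (12.5) with Cry1 at 7.86.

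Per1 (ENSMUSG00000020893, chr11:69095217-69109960, plus strand), a period gene that glucocorticoids and cAMP also induce, was 2.28, 3.16 and 3.82 FPKM in CD 1 to 3 and 3.40, 3.63 and 2.85 in HFD 1 to 3. It was 1.95, 1.61 and 4.32 in CD_DSS 1 to 3, with 3.40, 3.73 and 4.85 in HFD_DSS 1 to 3. CD_DSS held both the lowest library of all (CD_DSS 2) and the second highest (CD_DSS 3), so no groups separated. The log2 fold change of HFD_DSS against CD_DSS was 0.52 (SE 0.24, limma adjusted p = 0.459), and the averaged DSS effect was -0.01 (SE 0.17, adjusted p = 0.980).

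Per2 (ENSMUSG00000055866, chr1:91415982-91459324, minus strand), a second period gene, was 1.30, 1.65 and 2.30 FPKM in CD 1 to 3 and 1.79, 1.46 and 1.81 in HFD 1 to 3. It was 1.02, 1.41 and 1.13 in CD_DSS 1 to 3, with 1.52, 1.25 and 1.78 in HFD_DSS 1 to 3. CD_DSS 1 and 3 were the lowest libraries, but CD_DSS 2 lay above CD 1. The DSS difference on the CD diet was -0.32 (SE 0.14) and did not pass (limma adjusted p = 0.192), and with HFD it was -0.10 (SE 0.14, adjusted p = 0.718).

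Per3 (ENSMUSG00000028957, chr4:151003652-151044665, minus strand), the third period gene, rested on 8 to 74 fragments a library. It was 0.314, 0.129 and 0.267 FPKM in CD 1 to 3 and 0.106, 0.215 and 0.152 in HFD 1 to 3. It was 0.0314, 0.0760 and 0.0565 in CD_DSS 1 to 3, with 0.110, 0.0299 and 0.144 in HFD_DSS 1 to 3. Every CD_DSS library was below every CD library, and HFD_DSS overlapped HFD. In limma's voom on recovered fragments, an alternative added after the data were seen, the averaged DSS effect on Per3 was -1.55 and was called (adjusted p = 0.0256), and on the CD diet alone it was -2.11 (SE 0.61, adjusted p = 0.0743).

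Dbp (ENSMUSG00000059824, chr7:45705088-45710203, plus strand), a clock output factor that binds D-boxes, was covered by 1 to 26 fragments a library. It was 0.109, 0.0552 and 0.0894 FPKM in CD 1 to 3 and 0.0912, 0.358 and 0.278 in HFD 1 to 3. It was 0.146, 0.0136 and 0.0419 in CD_DSS 1 to 3, with 0.0770, 0.108 and 0.126 in HFD_DSS 1 to 3. HFD 2 and HFD 3 were the highest libraries, as they were for Nr1d2, and HFD 1 lay within the CD range. With voom, no comparison of Dbp was called (HFD against CD log2 fold change 1.27, SE 0.67, adjusted p = 0.805). Of the exon bases of Dbp, 18.0% overlap Sphk2 on the opposite strand, a sphingosine kinase gene at 7.27 to 17.8 FPKM. Ciart (ENSMUSG00000038550, chr3:95878503-95882251, minus strand), a repressor of the activating pair, had 0 to 8 fragments a library and at most 0.135 FPKM. It was listed at 0 in CD_DSS 3, where 3 fragments, the limit that a count of 0 allows, would be 0.0554 FPKM; differences in Ciart were not detectable at this depth. This limit covers counting error only.

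Further clock genes were called with DSS. In a list of 13 such genes 10 were tested, and the averaged DSS effect, which called 20.0% of all genes, called 3 higher and 2 lower. With the 3 libraries that stood apart left out, when 3359 of 10611 genes were called, 3 were higher and 4 lower: those 5 in the same directions, with Clock (-0.28, limma adjusted p = 0.0221) and Rora (-0.64, adjusted p = 0.00393) lower too.

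Cry2, the second cryptochrome, was 3.59, 3.85 and 3.12 FPKM in CD 1 to 3 and 3.92, 5.27 and 4.00 in HFD 1 to 3. It was 2.13, 2.62 and 2.92 in CD_DSS 1 to 3, with 2.58, 2.95 and 2.73 in HFD_DSS 1 to 3. Every DSS library was below every untreated library. Cry2 was lower on HFD (log2 fold change -0.52, SE 0.12, limma adjusted p = 0.0337), a call lost without HFD 2, HFD 3, HFD_DSS 1 or HFD_DSS 3, and in the averaged effect (-0.43, adjusted p = 0.00589). On CD the difference of -0.35 did not pass (adjusted p = 0.105). Hlf, a D-box binding factor related to Dbp, was lower in the averaged effect (-0.31, adjusted p = 0.0288), a call lost in 7 of the 12 fits without 1 library.

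Among repressors, Bhlhe40, which competes for E-boxes, was 8.29 to 9.83 FPKM in CD, 7.81 to 11.2 in HFD, 11.6 to 15.9 in CD_DSS and 10.9 to 18.0 in HFD_DSS. Its averaged DSS effect was higher by 0.53 (SE 0.12, limma adjusted p = 0.0140). Nfil3, a D-box repressor that opposes Dbp, was 31.4 to 38.6 FPKM in CD, 22.2 to 32.3 in HFD, 36.6 to 53.5 in CD_DSS and 34.8 to 43.9 in HFD_DSS, and its averaged effect was 0.48 (SE 0.12, adjusted p = 0.0167). Timeless, a gene of DNA replication named after a fly clock gene, was higher by 0.25 (adjusted p = 0.0304), a call lost in 8 of the 12 fits without 1 library. Clock (-0.12, adjusted p = 0.408), Rora (-0.35, 0.178), Tef (-0.11, 0.730), Csnk1d (0.08, 0.377) and Btrc (-0.06, 0.540) did not pass for the averaged DSS effect. Bhlhe41, Csnk1e and Arntl2 were not tested with limma because they reached 1 FPKM in fewer than 3 libraries. No gene of this list was called for diet without DSS or with DSS (0 in both with limma and 0 with voom). At an unadjusted p under 0.05 there were 2 without DSS (726 of all 10806 genes) and 1 with DSS (1171). The averaged diet effect called 0 too (3 unadjusted, against 1364 of all genes, 0 with voom).

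**Figure D5:**
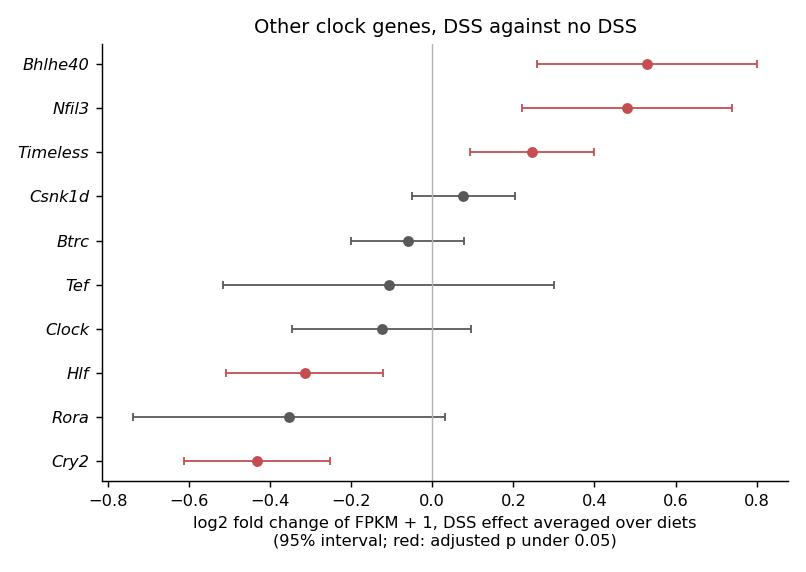
Log2 fold change of FPKM + 1 with 95% interval (horizontal axis) for the 10 tested genes of the list of further clock genes, DSS effect averaged over both diets; red marks an adjusted p under 0.05. Cry2 (-0.43) and Hlf (-0.31) were lower and Bhlhe40 (0.53), Nfil3 (0.48) and Timeless (0.25) higher.

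In a list of 14 genes that cycle in mouse liver 13 were tested, and the averaged DSS effect called 2 higher and 5 lower, against 8.72% higher and 11.2% lower of all genes. There were as many in each direction without the 3 libraries that stood apart (2 and 5), when 1489 of 10611 genes were higher and 1870 lower. The lower ones included Elovl3, a fatty acid elongase, which was 513 to 643 FPKM in CD and 505 to 736 in HFD, against 416, 50.2 and 40.3 in CD_DSS 1 to 3. In HFD_DSS 1 to 3 it was 36.5, 479 and 219. CD_DSS 1 and HFD_DSS 2, which had the least Saa1 of their groups, were the nearest to the untreated values. HFD 1, with abundant Saa1 (579 FPKM), nevertheless had the highest Elovl3 of all 12 libraries (736). The averaged effect on Elovl3 was -2.29 (SE 0.65, limma adjusted p = 0.0305), a call lost in 10 of the 12 fits without 1 library. Upp2, a uridine phosphorylase, was 26.9 to 32.6 FPKM in CD, 8.02 to 14.1 in HFD, 7.91 to 9.75 in CD_DSS and 5.39 to 8.89 in HFD_DSS. It was lower with DSS on CD (-1.63, SE 0.20, adjusted p = 0.00394), in the averaged DSS effect (-1.11, adjusted p = 0.00109) and in the averaged diet effect (-0.90, called in limma, lost without 1 library in 6 of 12 fits). In limma, Upp2 was not called with DSS on HFD, nor for diet without DSS or with DSS. In the averaged DSS effect Mreg was lower too (-0.81, adjusted p = 0.00227), and the tetraspanin gene Tspan4 was higher (0.85, adjusted p = 0.0212, lost in 6 of 12 fits without 1 library). Por, the electron donor of cytochrome P450 enzymes, was higher in the averaged effect (0.62, adjusted p = 0.0109) and on HFD (1.03, adjusted p = 0.0216), the latter call lost without HFD 2, HFD 3, HFD_DSS 1 or HFD_DSS 3 (adjusted p up to 0.0799).

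Lists of genes that respond to food and hormones, which also set the phase of the liver clock, were counted beside these, against 8.72% of all genes higher and 11.2% lower in the averaged DSS effect. Of 11 feeding-induced genes the averaged DSS effect called 1 higher (Angptl8, 1.41) and 5 lower, led by Scd1 (-2.84, limma adjusted p = 0.0106) and Thrsp (-2.46, adjusted p = 0.000209), genes of fat synthesis. Of 14 fasting-induced genes 0 were higher and 2 lower, G6pc of glucose output (-2.33, adjusted p = 0.00237) and Tat (-0.87, adjusted p = 0.00708). Glucocorticoid receptor targets were split, with 5 of 11 higher, among them the metallothionein genes Mt2 (4.60, adjusted p = 0.00573) and Mt1 (4.48, adjusted p = 0.00831), Lcn2, which is on the acute phase list too (4.26, adjusted p = 0.0162), Zbtb16 (1.87, adjusted p = 2.99e-05) and Fkbp5 (1.43, adjusted p = 0.00104), and 2 lower, among them Tsc22d3 (-1.06, adjusted p = 0.00457). With voom 4 of these were higher, as Mt2 was not called (adjusted p = 0.0984). Of 9 temperature-responsive genes 3 were higher (Rbm3, Hspa1b and Dnajb1) and 0 lower. The calls of Rbm3 and Hspa1b were each lost in 6 of 12 fits without 1 library. Without the 3 libraries that stood apart the counts higher and lower were 1 and 8 for feeding, 0 and 6 for fasting, 5 and 1 for glucocorticoid and 3 and 0 for temperature, against 1489 and 1870 of 10611 genes. For diet, limma on all 12 libraries called 0 genes of these lists. In HFD against CD and in the averaged diet effect, 7 and 6 of 11 feeding-induced genes had an unadjusted p under 0.05. The counts were 3 and 4 for fasting, 3 and 3 for glucocorticoid and 0 and 0 for temperature. Over all 10806 genes they were 726 and 1364. The median log2 fold changes of the feeding-induced genes were -0.78 and -0.60, and voom called 1 lower in the averaged diet effect. The part of these lists in the clock gene differences was not tested.

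The genes most like Arntl over the 12 libraries, by Pearson r of log2(FPKM + 1) and with Spearman rho beside it, were Eps8l2 (r 0.89, rho 0.81), Cavin1 (0.87, 0.80), Ackr2 (0.87, 0.83), Tars (0.87, 0.69) and Acad9 (0.87, 0.79). Those most like Dbp were Gna12 (0.89, 0.66), Zfp563 (0.89, 0.90), Etfdh (0.87, 0.87), Bbox1 (0.85, 0.79) and Tnfaip8l1 (0.84, 0.88). These are descriptions over libraries that share groups and depth, and the Dbp values rest on few fragments.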

How the data were processed

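Per the labels' protocols, liver RNA was prepared with a Qiagen kit and sequenced from SMARTer libraries. The authors deposited gene FPKM with 1 column for each library, not pooled, on build mm10 per the submitters' processing notes. For the aligner and the counter, versions included, nothing is named in the sources used here. The table also held 4 unnamed empty columns, not used.

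From the FPKM and GENCODE exon lengths (GRCm38), whole fragments were recovered: 97.0 to 97.3% of values under 500 fragments lay within 0.02 of a whole number, and their sums gave the depth.

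With limma 3.58.1 in R 4.3.3, 1 linear model with 4 group means was fitted to log2(FPKM + 1) of all 12 libraries (two-sided, empirical Bayes, trended variance). Genes that reached 1 FPKM in 3 or more libraries were tested, with Benjamini-Hochberg adjustment over all 10806 and a threshold of 0.05. There were 7 comparisons: DSS on each diet (CD_DSS against CD and HFD_DSS against HFD), diet without and with DSS (HFD against CD and HFD_DSS against CD_DSS), the difference between the DSS effects, and DSS and diet effects averaged over the other factor. Limma's voom on fragments (at least 10 in at least 3 libraries, 14758 genes) was added after the data were seen. The fit was tested on simulated data.

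The clock genes and all gene lists were chosen with earlier results of these data known. The text names all 10 clock genes, the further clock genes (some are not reported here), up to 4 called members of each other list with the largest change per comparison, and the 5 genes most like Arntl and Dbp; called markers named beyond that were chosen after their values were seen. Alternatives were a pseudocount of 0.1, no filter, a mean of at least 5 FPKM, TPM, median-of-ratios scaling, library weights, a replicate block, the compared groups alone, and leaving out each library or the 3 that stood apart. Overlaps and promoter motifs used GENCODE and RefSeq tables.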

Additional observations from a re-analysis of the deposited data

How the results depend on the processing

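The number of clock genes called stayed at 0 in HFD against CD, HFD_DSS against CD_DSS, the difference between DSS effects and the averaged diet effect under every alternative run. With a mean of at least 5 FPKM only 1 clock gene, Cry1, was left to test. In CD_DSS against CD it went from 0 to 1 with library weights (Cry1), without the 3 libraries that stood apart (Cry1) and with the compared groups alone (Nr1d1). In HFD_DSS against HFD it went from 1 to 0 with no filter, with TPM and with the compared groups alone, to 2 with library weights (Cry1 and Npas2) and to 3 without the 3 libraries (Arntl, Cry1 and Npas2); leaving out 1 library at a time gave 0 to 3. Without HFD 2, HFD 3, HFD_DSS 1 or HFD_DSS 3 it was 0, and without HFD_DSS 2 it was 3. In the averaged DSS effect it went from 1 to 3 with library weights and without the 3 libraries (Arntl, Cry1 and Npas2), to 2 with voom (Cry1 and Per3) and to 1 to 3 without 1 library; without HFD 2 it was 2 (Cry1 and Nr1d1) and without HFD_DSS 2 it was 3. Genes tested numbered 25911 with no filter, 13268 with TPM and 5273 with a mean of at least 5 FPKM, in place of 10806. With the compared groups alone 10316 were tested in HFD_DSS against HFD and 10230 in CD_DSS against CD. The cause of the moved counts was not tested. The counts over all genes moved with these settings too: in HFD_DSS against HFD 522 genes were called, 130 with no filter, 333 with TPM, 2820 with library weights, 2028 without the 3 libraries, 152 with the compared groups alone and 9 without HFD 2. In CD_DSS against CD 519 were called, 2592 with library weights, 1941 without the 3 libraries and 264 with the compared groups alone. In the averaged DSS effect 2157 were called, 4259 with library weights, 3359 without the 3 libraries and 2324 of 14758 with voom. Without HFD_DSS 2 there were 880 calls in HFD_DSS against HFD and 2385 in the averaged DSS effect, where 1306 remained without HFD 2.

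No called log2 fold change of a clock gene or list gene changed sign under any alternative (0). Cry1 in HFD_DSS against HFD ranged from -0.88 to -0.67 and was called in 15 of 22 alternatives (adjusted p 0.00252 to 0.110). It was lost with no filter (adjusted p = 0.0744), TPM (0.0682) and the compared groups alone (0.0548). Among the other calls named in the report, no filter lost those of Cry2 and Por on HFD, Hlf, Timeless, Elovl3, Tspan4, Lcn2, Rbm3, Hspa1b, Dnajb1, Adgre1, Cd5l, Lyve1 and, for diet, Upp2. TPM lost those of Cry2 on HFD, Hlf and Upp2 for diet, the compared groups alone that of Cry2 on HFD, and voom that of Mt2.

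The correlation of deviations from the group means was -0.36 to 0.26 over 18 same-numbered pairs, and 5 exceeded 0.1. Over 36 differently numbered pairs it was -0.36 to 0.46, and 11 exceeded 0.1. By this measure, libraries with the same replicate number were no more alike than others. With the replicate number as a block, the count of clock genes called was 0 in CD_DSS against CD, 1 in HFD_DSS against HFD (Cry1, adjusted p = 0.0480) and 1 in the averaged DSS effect; the calls of Timeless (adjusted p = 0.0538), Elovl3, Adgre1 and Cd5l in the averaged DSS effect were lost. Depth limits Per3, Dbp and Ciart, whose values rest on at most 74, 26 and 8 fragments.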
